A study of Mus musculus with 2 samples.

Results

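The collagen receptors described here are 6 genes, the 4 integrin alpha subunit genes *Itga1*, *Itga2*, *Itga10* and *Itga11* and the 2 discoidin domain receptor genes *Ddr1* and *Ddr2*. They were taken by symbol from the 23628 genes listed for *Sox9*GFPHi chondrospheres, and all 6 were listed. The chondrospheres are colonies that grew from single GFP-high cells in methylcellulose at low oxygen. The cells came from femoral heads of *Sox9*GFP pups at postnatal day 7, a line bought as homozygous in which the *Sox9* locus also produces EGFP, and the medium held serum with FGF2, BMP4, IGF1, LIF and TGF-β1. Live cells had been sorted for GFP and for lack of CD31, Ter119 and CD45, so *Sox9* itself and the markers of blood vessel and blood cells were part of the gate. RNA-sequencing gave 2 libraries of this 1 condition, called replicate 1 and replicate 2, with no control group. The labels give neither the time in culture nor whether the libraries came from separate pups or cultures, so the spread between them can be technical in part, and no test between groups was possible.

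Collagen-binding integrins are pairs of an alpha subunit and the beta subunit encoded by *Itgb1*. Each of the 4 alpha subunits carries an inserted I domain that holds a metal ion and docks on the collagen triple helix. The product of *Itga10* is known as the collagen II receptor of cartilage, those of *Itga2* and *Itga11* prefer fibrillar collagens such as collagen I, and that of *Itga1* prefers network-forming collagen IV. *Ddr1* and *Ddr2* encode receptor tyrosine kinases that bind collagen through a discoidin domain and are activated slowly. *Ddr1* is known mainly from epithelia and *Ddr2* from mesenchymal cells, and mice without *Ddr2* have short limbs.

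The coding stretches below surround the metal-binding motif of the I domain in the 4 integrin genes. They were read from the GENCODE M21 transcripts of GRCm38, on the coding strand. Each was located by a pattern for this motif with Asn before its last Ser, followed by Ile or Val. Likeness inside the motif and at the residue right after it was thus set in advance. The capitals mark the codons of the metal-binding motif of the I domain, the residues Asp-X-Ser-X-Ser. The 4 stretches each lie in exon 6.
Itga10, chr3:96649061-96649090, plus strand: gttttgGATGGCTCCAACAGTatctatccc
Itga1, chr13:115030105-115030134, minus strand: gtcctaGATGGCTCCAACAGCatctacccc
Itga11, chr9:62735298-62735327, plus strand: gtcttaGATGGCTCCAACAGCatctacccc
Itga2, chr13:114880618-114880647, minus strand: gtatgtGATGAATCAAACAGTatttatcct

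Over these 30 bases *Itga1* and *Itga11* matched at 29, *Itga10* matched *Itga11* at 26 and *Itga1* at 25, and *Itga2* matched the other integrins at 19 to 22. The stretches of *Itga10*, *Itga1* and *Itga11* encode the same residues, so these matches do not rank how alike the protein sites are. At the length of a read, 50 bases, the transcripts of the 6 genes shared 1 word, between *Itga1* and *Itga11*. Reads could be shared with other genes at *Itga10*, where 1599 of 5230 words (30.6%) also lie in *Gm42957*, an overlapping gene model on the same strand. Such words made up 3.27% for *Itga1*, at most 0.667% for *Itga11* and *Ddr2*, and 0% for *Itga2* and *Ddr1*. *Gm42957* itself was low, with 3.46 and 2.04 counts-per-million (CPM) in replicates 1 and 2, against 89.4 and 64.1 CPM for *Itga10*. From here on, the first value of each pair is that of replicate 1.

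Values are CPM, and levels of different genes are compared only after division by exonic length, as CPM per kb. The steps between low values imply depths of about 43300000 and 42100000 assigned reads, and 3 reads correspond to 0.0693 and 0.0712 CPM. The libraries stood apart from each other in composition. Over the 12631 genes that averaged 1 CPM or more, log2 ratios of replicate 2 to replicate 1 had a median of 0.30, and ratios between the libraries are given below relative to it. On this scale 938 genes (7.43%) were over 2-fold higher and 766 (6.06%) over 2-fold lower in replicate 2, so 55.0% of the differing genes were higher, against 75.4% without centring. Of 10 chondrocyte markers, *Matn3* at 741 and 53.1 CPM and *Col9a1* at 1881 and 1087 CPM were over 2-fold lower in replicate 2. The call of *Col9a1* rests on the centring, since its CPM did not differ by over 2-fold. All 10 averaged over 1 CPM, and *Sox9* had 252 and 279 CPM.

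The 6 receptors fell into 3 genes at a higher level and 3 at a lower level, and the groups did not overlap in either library. The higher group held *Ddr2*, *Ddr1* and *Itga10*, and the lower group *Itga1*, *Itga2* and *Itga11*. Division by the longest coding transcript in place of all exonic bases gave the same groups. The median level of the 6 was 8.30 CPM per kb, beside 3.67 CPM per kb over the 12436 of those genes with a known length. No receptor lay near 8.30, since by mean per exonic length the 3 of the higher group were above 3.67 and well above 8.30. The 3 of the lower group were below 3.67.

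*Ddr2*, on chromosome 1 from 169972307 to 170110762, had 157 and 196 CPM. Per length this was 16.9 and 21.1 CPM per kb, a mean of 19.0 ± 2.97 (SD, n = 2). *Ddr1*, on chromosome 17 from 35681567 to 35704621, had 76.1 and 79.2 CPM. Its level of 15.9 and 16.6 CPM per kb, a mean of 16.3 ± 0.461 (SD, n = 2), was nearly alike in both libraries, so the receptor known mainly from epithelia belonged to the higher group here. *Itga10*, on chromosome 3 from 96645584 to 96664519, had 17.2 and 12.4 CPM per kb, a mean of 14.8 ± 3.44 (SD, n = 2). By mean level per kb it stood above 83.8% of the 12436 genes.

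*Itga1*, on chromosome 13 from 114953096 to 115101964, had 21.7 and 44.9 CPM, or 1.16 and 2.41 CPM per kb, with a mean of 1.79 ± 0.883 (SD, n = 2). Its exonic length of 18599 bases joins the exons of all its transcripts, and with its longest coding transcript of 10967 bases the level was 1.98 and 4.09 CPM per kb. *Itga2* lies beside it on the same strand, from 114833081 to 114932100. Its 1.99 and 21.8 CPM rest on about 86 and 917 reads. Per length these were 0.279 and 3.05 CPM per kb, a mean of 1.66 ± 1.96 (SD, n = 2), so *Itga2* was the lowest of the 6 receptors in replicate 1 and exceeded *Itga1* in replicate 2, which it did not with the longest coding transcripts as length. *Itga11*, on chromosome 9 from 62677826 to 62783982, had 1.57 and 5.53 CPM, or 0.306 and 1.08 CPM per kb, with a mean of 0.692 ± 0.545 (SD, n = 2).

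**Figure D1:**
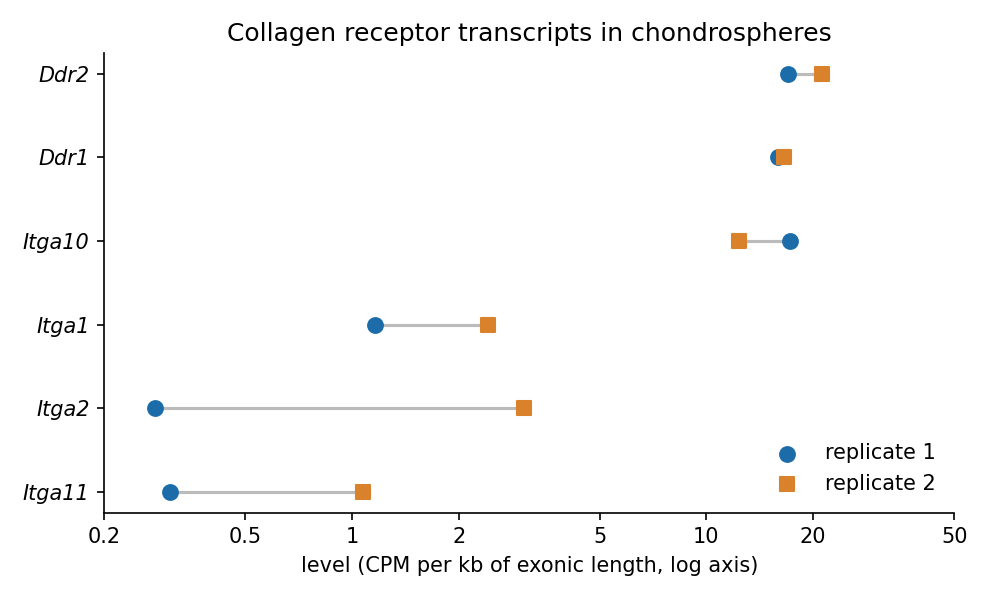
Level of each collagen receptor gene in CPM per kb of exonic length (log axis), with a circle for replicate 1 and a square for replicate 2. *Ddr2*, *Ddr1* and *Itga10* lie between 12.4 and 21.1 CPM per kb in both libraries, and *Itga1*, *Itga2* and *Itga11* between 0.279 and 3.05.

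Neighbours in this order mostly could not be told apart by 2 libraries. *Ddr2* exceeded *Ddr1* by a log2 ratio of 0.22 ± 0.18 (SD, n = 2) per kb, but by 0.03 with the longest coding transcript as length, where the sign differed between the libraries. *Ddr1* against *Itga10* gave a log2 ratio of -0.11 in replicate 1 and 0.42 in replicate 2, and *Itga1* against *Itga2* gave 2.06 and -0.34. *Itga2* was 0.910 times *Itga11* in replicate 1 and 2.83 times in replicate 2. Only the step from *Itga10* down to *Itga1* exceeded its spread under every length tried.

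*Itga10*, the chondrocyte subunit, was above each other collagen-binding alpha subunit in both libraries, with either length. Such ratios are taken inside a library, so its scaling cancels. Per kb, *Itga10* was 14.8-fold and 5.12-fold above *Itga1* in the 2 libraries, with a log2 ratio of 3.12 ± 1.08 (SD, n = 2). It was 61.9-fold and 4.06-fold above *Itga2*, with a log2 ratio of 3.99 ± 2.78 (SD, n = 2), and 56.3-fold and 11.5-fold above *Itga11*, with a log2 ratio of 4.67 ± 1.62 (SD, n = 2). Each of these mean ratios was larger than its SD, and each was smaller in replicate 2. With the longest coding transcript as length, the excess over *Itga1* was 8.97-fold and 3.11-fold.

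The comparison of *Itga10* with the discoidin receptors depended on the length used. Its log2 ratio to *Ddr1* was 0.11 in replicate 1 and -0.42 in replicate 2, a mean of -0.16 ± 0.38 (SD, n = 2), and its log2 ratio to *Ddr2* was 0.03 and -0.77, a mean of -0.37 ± 0.56 (SD, n = 2). Both of these means, per exonic length, lay within the spread between the libraries. With the longest coding transcript as length, *Itga10* was below *Ddr1* in both libraries, with a log2 ratio of -0.15 in replicate 1 and -0.69 in replicate 2, and the mean of -0.42 exceeded its SD of 0.38. The log2 ratio to *Ddr2* then had a mean of -0.44, within its SD of 0.56.

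**Figure D2:**
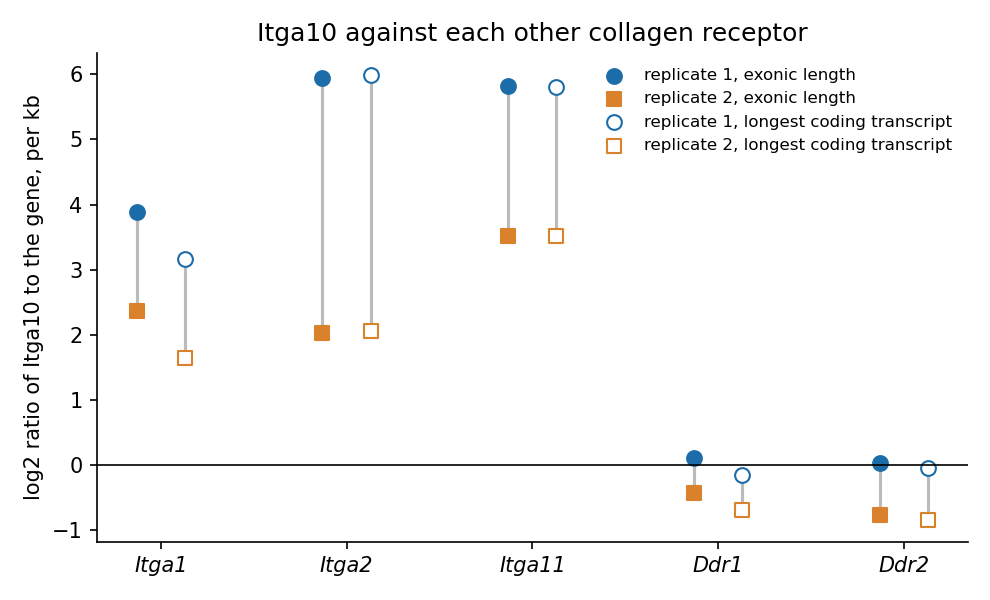
Log2 ratio of *Itga10* to each other collagen receptor per kb, in replicate 1 (circles) and replicate 2 (squares), with exonic length (filled) or the longest coding transcript (open) as length. The ratios to the 3 other alpha subunits lie between 1.64 and 5.99, and those to *Ddr1* and *Ddr2* between -0.84 and 0.11.

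As deposited, without centring, the summed level per kb of the 4 collagen-binding alpha subunits was alike in the 2 libraries, while its makeup shifted. Relative to the median log2 ratio of 0.30, the sum per kb was lower in replicate 2. The sum was 19.0 and 18.9 CPM per kb, or 20.6 ± 0.488 CPM per kb (SD, n = 2) with the longest coding transcripts as length, and 115 and 136 CPM with no division by length. Per exonic length, *Itga10* made up 90.8% of it in replicate 1 and 65.4% in replicate 2. *Itga1* took 6.13% and 12.8%, *Itga2* 1.47% and 16.1%, and *Itga11* 1.61% and 5.70%. With the longest coding transcripts as length, the share of *Itga10* was 87.3% and 60.6%. In bulk RNA, a change in the share of cells that carry a transcript and a change in its amount per cell cannot be told apart.

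Among the 12 alpha subunits that can pair with *Itgb1*, the 4 collagen-binding ones took 32.6% of the summed level per kb in replicate 1 and 16.0% in replicate 2. The largest share belonged to *Itga5*, the fibronectin receptor subunit, with 37.1% and 45.8%. *Itgav*, whose product binds RGD motifs in fibronectin and vitronectin, took 14.0% and 28.4%. *Itga10* was second to *Itga5* in replicate 1, with 29.6%, and came after *Itga5* and *Itgav* in replicate 2, with 10.5%. The log2 ratio of *Itga5* to *Itga10* was 0.33 in replicate 1 and 2.13 in replicate 2, and its mean of 1.23 did not exceed its SD of 1.27. With the longest coding transcript as length the mean was 1.36, which exceeded that SD. *Itga6*, a laminin receptor subunit, was below *Itga10* in both libraries per exonic length, with a log2 ratio of -1.64 in replicate 1 and -0.60 in replicate 2. With the longest coding transcript as length the sign of that ratio differed between the libraries.

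**Figure D3:**
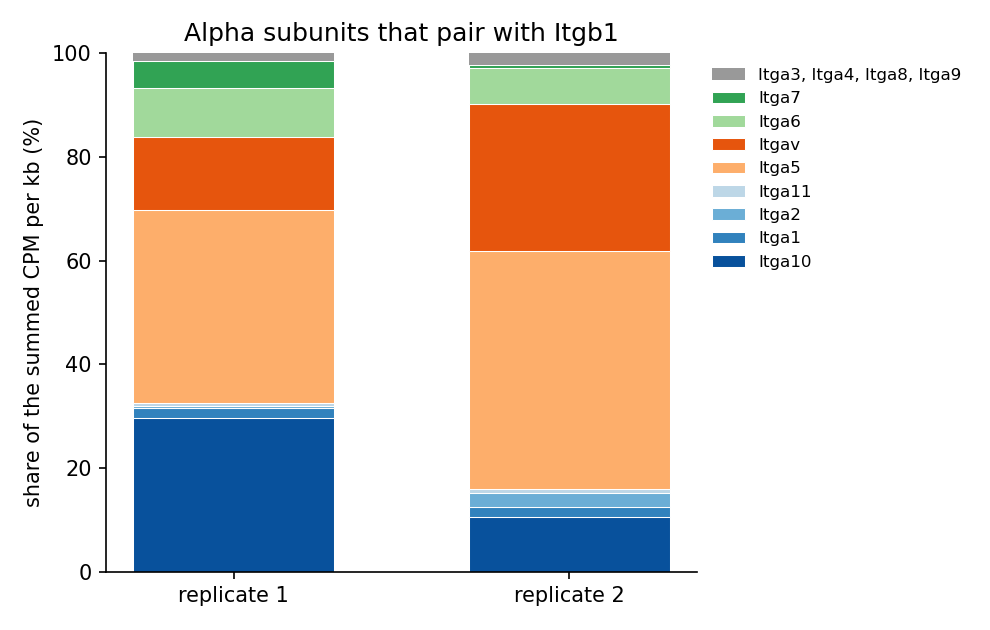
Share of each alpha subunit that can pair with *Itgb1* in their summed CPM per kb (%), one bar for each library, with the collagen-binding subunits in blue at the bottom. The blue part is 32.6% in replicate 1 and 16.0% in replicate 2, while *Itga5* and *Itgav* widen.

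Between the libraries, 2 of the 6 receptors were over 2-fold higher in replicate 2 and none over 2-fold lower, beside 7.43% and 6.06% of all genes. *Itga2* had a log2 ratio of replicate 2 to replicate 1 of 3.08, against a counting error of 0.16 on that scale. *Itga11* had 1.45, with a counting error of 0.20. *Itga1* had 0.74, and only without centring did it pass 2-fold, at 1.05. *Itga10* was lower in replicate 2 but within 2-fold, with a log2 ratio of -0.78 relative to the median gene. Its CPM as deposited, without centring, was 0.718 times that of replicate 1. *Ddr1* at -0.25 and *Ddr2* at 0.01 differed least. Without centring *Ddr1* had 0.06, so its sign depended on the scaling.

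**Figure D4:**
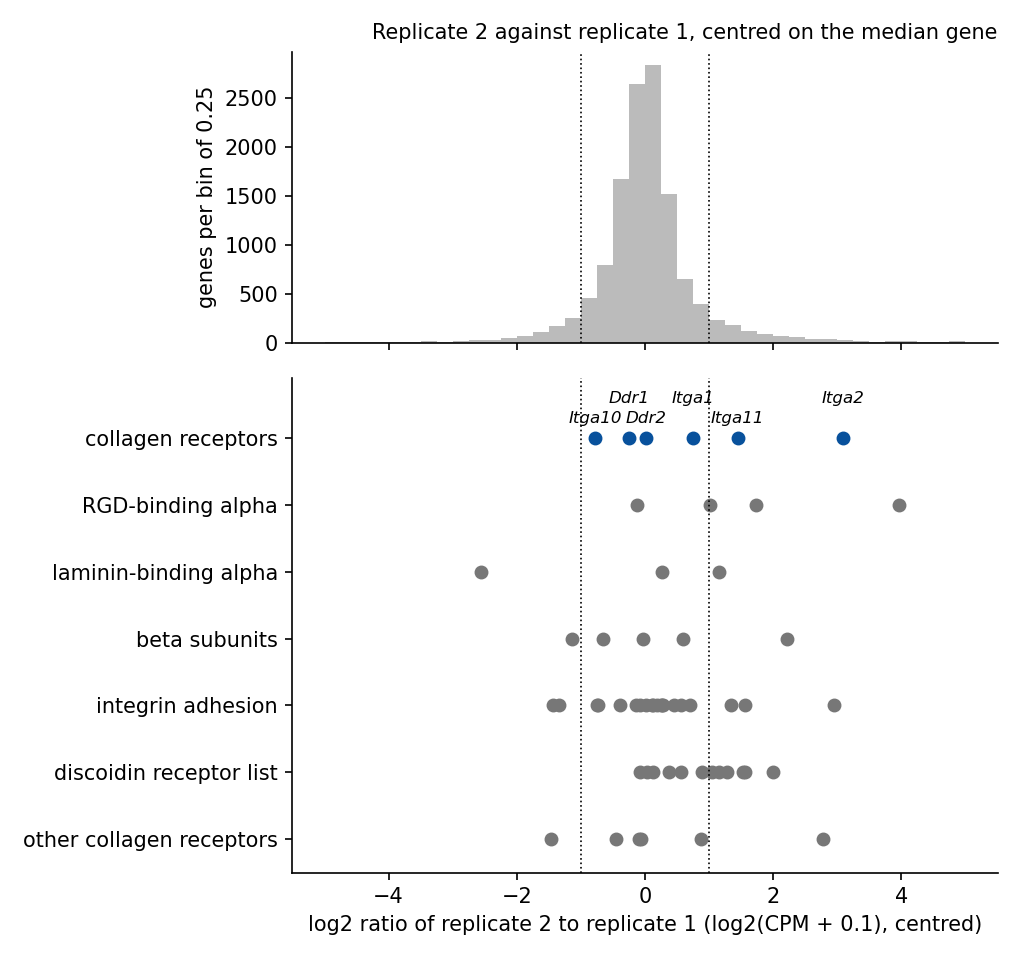
Log2 ratio of replicate 2 to replicate 1 on the log2(CPM + 0.1) scale, relative to the median of all genes. The upper panel counts the 12631 genes averaging 1 CPM or more, with values beyond ±5 drawn at the edge, and the lower panel places the genes of each list that reach that mean. Dotted lines mark 2-fold, and *Itga2* at 3.08 and *Itga11* at 1.45 lie past the right line.

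The beta subunits were led by *Itgb1* and *Itgb5*. *Itgb1*, the shared partner, had 408 and 760 CPM, or 99.9 and 186 CPM per kb. It exceeded *Itga10* 5.80-fold and 15.1-fold per kb, with a log2 ratio of 3.22 ± 0.97 (SD, n = 2), and it was above the sum of all 12 alpha partners, which was 58.3 and 118 CPM per kb. *Itgb5*, a partner of *Itgav* in vitronectin binding, was at a like level, with 102 and 124 CPM per kb. Of the 8 beta subunits 5 reached a mean of 1 CPM. *Itgb3*, the other vitronectin receptor subunit, was over 2-fold higher in replicate 2 with 18.8 and 108 CPM. *Itgb8* was over 2-fold lower relative to the median gene, with 4.09 and 2.25 CPM. The call of *Itgb8* rests on the centring, since its CPM did not differ by over 2-fold. *Itgb4*, the laminin receptor subunit of hemidesmosomes, had 11.5 and 8.99 CPM, and *Itgb2*, *Itgb6* and *Itgb7* had at most 0.261 CPM.

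Of the 4 RGD-binding alpha subunits 3 were over 2-fold higher in replicate 2, beside 7.43% of all genes. These were *Itga5* with 107 and 266 CPM, *Itgav* with 88.0 and 360 CPM, and *Itga8* with 0.116 and 4.06 CPM. *Itga2b*, the platelet subunit, had 1.25 and 1.42 CPM. The 3 laminin-binding subunits did not move together, since *Itga3* had 3.51 and 9.80 CPM and was over 2-fold higher, *Itga7* had 25.2 and 5.20 CPM and was over 2-fold lower, and *Itga6* had 49.8 and 73.8 CPM. *Itga9*, a tenascin receptor subunit, had 1.69 and 2.80 CPM, and *Itga4* had 0.0924 and 0.593 CPM. The 5 leukocyte alpha subunits had at most 0.261 CPM, with *Itgam* and *Itgad* listed at 0 in both.

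Beside the discoidin receptors stands a list of 12 genes for proteins that bind, cleave or follow them. All 12 reached a mean of 1 CPM, 6 were over 2-fold higher in replicate 2 and none was over 2-fold lower, beside 7.43% and 6.06% of all genes, and their median log2 ratio was 0.97. The genes for proteases were among the 6. *Mmp14*, which encodes a membrane collagenase known to cleave the *Ddr1* product, had 84.6 and 234 CPM. *Adam10*, a sheddase of the same receptor, had 21.5 and 77.1 CPM. *Mmp13*, the collagenase of hypertrophic cartilage that *Ddr2* is known to induce, had 8.96 and 44.8 CPM. The other 3 were the adaptor gene *Nck2* with 8.37 and 25.2 CPM, the kinase gene *Ptk2b* with 10.9 and 40.0 CPM, and *Myh10*, a non-muscle myosin gene, with 14.2 and 36.4 CPM. *Myh9*, which encodes the myosin that binds the *Ddr1* product, had 187 and 426 CPM, a log2 ratio of 0.89. *Shc1*, *Ptpn11*, *Src*, *Nck1* and *Frs2*, genes for adaptors, a phosphatase and a kinase in receptor signalling, were within 2-fold, with log2 ratios from -0.08 to 0.55.

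A further list holds the machinery that links integrins to actin. Of its 23 genes 20 reached a mean of 1 CPM, 3 were over 2-fold higher in replicate 2 and 2 over 2-fold lower, beside 7.43% and 6.06% of all genes, with a median log2 ratio of 0.15. The highest per kb were *Tns2* with a mean of 41.8 ± 9.17 CPM per kb, *Ilk* with 24.5 ± 3.88, *Zyx* with 22.3 ± 1.84, *Tln1* with 19.7 ± 5.38 and *Bcar1* with 10.5 ± 2.96 CPM per kb (SD, n = 2 each). *Tns2* encodes a tensin, *Ilk* the scaffold integrin-linked kinase, *Zyx* and *Bcar1* the adhesion proteins zyxin and p130Cas, and *Tln1* talin, which activates integrins by binding the beta tail. Of the kindlin genes, whose products activate integrins together with talin, *Fermt2* had 38.8 and 54.4 CPM, *Fermt3* of blood cells had 0.116 and 0.214 CPM, and *Fermt1* of epithelia was listed at 0 in both libraries.

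Other receptors that take up or bind collagen were measured beside the 6. *Mrc2*, which encodes the uptake receptor Endo180, was higher per kb than each of the 6 receptors, with 86.6 and 78.2 CPM per kb, and it exceeded *Ddr2* by a log2 ratio of 2.12 ± 0.33 (SD, n = 2). *Cspg4*, which encodes the collagen VI-binding proteoglycan NG2, had 45.1 and 51.9 CPM per kb. *Cd44*, whose product binds hyaluronan and collagen, had 14.7 and 126 CPM and was over 2-fold higher in replicate 2, with a log2 ratio of 2.79 near that of *Itga2*. *Adgrg1*, a collagen III receptor gene, had 7.49 and 3.30 CPM and was over 2-fold lower. *Antxr1* had 41.3 and 49.0 CPM and *Antxr2*, a collagen VI receptor gene, had 16.7 and 38.0 CPM. The collagen receptor genes of blood cells were near the floor, with *Oscar* at 0.347 and 0.356 CPM, *Lair1* at 0 and 0.0712 CPM, and *Mrc1* and *Cd36* listed at 0 in both libraries. *Gp6* was not analysed here.

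The collagens these receptors bind were led by those of cartilage. Per kb the 5 highest of 24 collagen genes were *Col2a1* with a mean of 13504 ± 3693, *Col11a2* with 886 ± 61.6, *Col9a2* with 730 ± 181, *Col9a3* with 674 ± 64.2 and *Col11a1* with 671 ± 134 CPM per kb (SD, n = 2 each). *Col1a1*, a preferred ligand gene of the *Itga2* and *Itga11* products, had 178 and 88.9 CPM per kb and was over 2-fold lower in replicate 2 relative to the median gene, a call that rests on the centring, since its CPM of 1166 and 584 did not differ by over 2-fold. *Col1a2*, which encodes the other collagen I chain, was within 2-fold with 2714 and 2620 CPM. Of the collagen VI genes *Col6a1* and *Col6a3* were over 2-fold higher in replicate 2, and *Col6a2* was within 2-fold with a log2 ratio of 0.91. Over all 11 fibrillar collagen genes 1 was over 2-fold higher and 2 were over 2-fold lower, with a median log2 ratio of -0.45. Both of these lower calls rest on the centring. Over the other 13 collagen genes 3 were higher and 3 lower, the latter with *Col9a1*, whose call rests on the centring too. These counts stand beside 7.43% of all genes higher and 6.06% lower.

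With the 6 receptors and the cell markers left out, the genes of the lists nearest to *Itga10* by level were *Col8a2*, *Tln1* and *Shc1*, at distances of 0.24, 0.93 and 0.95 in log2 CPM per kb over the 2 libraries, among 80 genes. With 1 condition this is likeness of level and of its difference between 2 libraries, not of a pattern across conditions.

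Markers of other cells in which *Itga1*, *Itga2* and *Ddr1* are known were measured in the same libraries. The 6 endothelial markers summed to 0.231 and 0.166 CPM, and *Cdh5*, *Kdr*, *Tek*, *Emcn* and *Cldn5* were listed at 0 in both. Of the 4 platelet markers *Pf4*, *Ppbp* and *Gp9* were listed at 0 in both. The 5 epithelial markers listed summed to 0.0462 and 0.214 CPM, and *Cdh1* and *Krt14* were listed at 0. The 6 leukocyte markers summed to 8.36 and 3.35 CPM, nearly all from *Laptm5* and *Cd68*, with *Cd52* and *Adgre1* listed at 0 in both. The 6 erythroid markers summed to at most 0.120 CPM. Of the 5 markers of smooth muscle and pericytes only *Acta2* was above 1 CPM, with 53.4 and 93.0 CPM, and the others had at most 0.641 CPM. The 7 fibroblast markers summed to 9.30 and 12.1 CPM, most of it from *Ly6a*, with *Pi16* and *Dpp4* at 0.

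Some markers of the osteoblast lineage were, like *Itga2* and *Itga11*, over 2-fold higher in replicate 2. These were 3 of the 4 that reached a mean of 1 CPM, beside 7.43% of all genes, and the sum of the 5 markers, 4.86 and 52.7 CPM, differed mostly through *Dmp1*. *Dmp1*, an osteocyte gene, had 0.116 and 40.4 CPM, *Sp7* had 1.96 and 6.81 CPM, and *Alpl* had 0.462 and 1.92 CPM, while *Ibsp* was within 2-fold with 2.24 and 3.27 CPM and *Bglap* had 0.0787 and 0.229 CPM. None of the 5 was at 0 in both libraries. Whether these markers came from cells of that lineage, or bear on the higher levels of *Itga2* and *Itga11*, was not tested.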

How the data were processed

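The libraries were stranded and poly(A)-selected. The authors aligned single-end reads of 50 bases to GRCm38 with GENCODE M25 by STAR 2.7.3a in Partek Flow 10.0.21.0801, counted them per gene with Partek E/M, an expectation-maximization method that can divide a read among overlapping genes, and deposited counts-per-million (CPM) values. An offset of 0.0001 CPM on every deposited value was subtracted. Of the low values, 61.4% and 60.2% were whole multiples of the step of 1 read (within 0.02 of it), which is too few to turn CPM back into reads, so no count test was used. Depth and reads are therefore estimates, and floors and counting errors cover counting error only.

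Exonic lengths, positions and coding stretches came from GENCODE M21 on GRCm38, to which 22967 of 23628 genes (97.2%) matched by name. CPM was divided by exonic length in kb, and log2 ratios were taken within each library. A ratio was said to exceed the spread when both libraries had the same sign and the mean exceeded the SD of the 2 libraries. Ratios between libraries used log2(CPM + 0.1), which understates the change of low genes, relative to the median over genes averaging 1 CPM or more, and 2-fold as threshold. No p-values were computed.

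The members and the 22 gene lists were chosen with earlier results of these data known. The rule for naming genes took the 6 receptors, all genes of the lists of RGD-binding, laminin-binding and other alpha subunits, beta subunits, discoidin receptor genes and other collagen receptors, the 5 highest adhesion and collagen genes per kb with *Col1a1*, the nearest 3 genes to *Itga10*, and markers that bear on a receptor. *Fermt1*, *Fermt2*, *Fermt3*, *Col1a2*, *Col6a1*, *Col6a2*, *Col6a3* and *Gm42957* were added after their values were seen. The calls between libraries were tested on simulated data, with changes planted only in genes averaging 10 CPM or more. Calls of lower genes, ratios within a library and shares were not tested in this way. Python 3.11.15, numpy 2.4.6, pandas 2.3.3, biopython 1.88 and matplotlib 3.10.9 were used. Coding stretches of the kinases are not reported here.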

Additional observations from a re-analysis of the deposited data

How the results depend on the processing

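For 28 results 122 values were recomputed with 1 choice changed, of which 102 kept and 20 moved. The ratios of *Itga10* to *Itga1* and to *Ddr1* were each counted under 2 results, so these totals hold repeats. A level, a share or a ratio within a library kept if it stayed within the SD between the libraries. A ratio between the libraries kept if its sign and its 2-fold call were unchanged. A count over all genes kept if within 1.5 times, and a count of receptors if equal. No ratio that exceeded its spread changed sign, which the leave-out values could not do, since both libraries had to share the sign. Among the others, the log2 ratio of *Ddr1* between the libraries turned to 0.06 without centring, those of *Itga10* to *Ddr1* and *Ddr2* turned to 0.11 and 0.03 and that of *Itga2* to *Itga11* to -0.14 without replicate 2, and that of *Itga1* to *Itga2* to -0.34 without replicate 1. Leaving out 1 of 2 libraries moves a mean by less than its SD by arithmetic, which covers 36 of the 102. Without division by length the log2 ratio of *Itga10* to *Itga1* was 1.28 and that to *Ddr2* was -1.21, as the longer exons of *Itga1* and *Ddr2* require. Without centring 1435 genes were over 2-fold higher and 468 over 2-fold lower in replicate 2, and 3 of the 6 receptors were higher, with *Itga1* added. Among the 7903 genes averaging 10 CPM or more the counts were 296 and 265. Both were smaller shares than over the 12631 genes averaging 1 CPM or more. With no filter, over 20248 genes, the counts were 2013 and 2375. Scaling to a total without its 10 highest genes raised *Itga10* to 24.7 CPM per kb. Adding all CPM of *Gm42957* to *Itga10*, chosen after seeing the data, gave log2 ratios of 3.17, 4.04 and 4.72 to *Itga1*, *Itga2* and *Itga11*. This step could only raise the ratios, and the case of *Gm42957* reads counted under *Itga10* was not tested. With 2 libraries, *Itga2* and *Itga11* rest on 86 and 68 reads in replicate 1, and which transcript of a gene was used was not measured.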
